A study of Mus musculus with 16 samples.

Results

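Chemokines are small secreted proteins that steer leukocytes through G protein-coupled receptors, and the measurements below are of the RNA of this family in 2 fat depots of lean and obese mice. The members were the rows of the deposited table whose RefSeq accession carries a chemokine or chemokine receptor symbol (Ccl, Cxcl, Cx3cl, Xcl, Pf4, Ppbp, Ccr, Cxcr, Cx3cr, Xcr, Ackr and Ccrl2). The rule found 67 genes on 143 rows, which were 41 ligands, 24 receptors and 2 pseudogenes, of 130343 rows in all. A row passed the filter on low values with more than 1 count per 1000000 counts of the library (CPM) in at least 3 of 16 libraries. A row can pass through 1 group alone, and calls of that group then lean on the filter. Of the 143 rows, 42 passed, and these belong to 26 ligand genes (28 rows) and 13 receptor genes (14 rows). The other 28 genes, among them Ccr3, Cxcr2 and Ackr3, are accounted for at the end.

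The animals were male C57BL/6J mice, 4 kept on a normal laboratory diet (lean) and 4 made obese with a high-fat Western diet, in which fat gave 42% of the energy and cholesterol was 0.2%. The diets began at 10 weeks of age and ran for 12 to 14 months. Every mouse gave 1 library of inguinal subcutaneous adipose tissue (SAT, both sides combined) and 1 of mesenteric visceral adipose tissue (VAT), so that 16 libraries form 4 groups of 4. Poly-A RNA was sequenced from whole tissue. Visible vessels were cut away from the tissue by hand. Fewer cells of a type and less RNA per cell cannot be told apart in such data.

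The typical receptors signal through Gi proteins and draw the cells that carry them toward a rising level of the ligand, while the atypical receptors (Ackr genes and Ccrl2) bind ligands without this signal. The CC ligands Ccl2, Ccl7 and Ccl12 act on Ccr2 of monocytes, and Ccl3, Ccl5, Ccl6 and Ccl9 act on Ccr1. In lymphoid tissue Ccl19 and Ccl21 guide cells with Ccr7, Cxcl13 guides B cells with Cxcr5, and the interferon-induced ligands Cxcl9 and Cxcl10 guide T cells with Cxcr3. Adipose tissue of obese animals is known for an increase in macrophages, and chemokines of the monocyte axis have been studied there for that reason.

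Total counts ran from 1256082 in VAT of lean mouse 1 to 16614407 in SAT of obese mouse 3, and VAT of obese mouse 1 had 2247737. The other 14 libraries held at least 4604460. On the scaled level used below a single count stood for 0.0596 to 0.637 CPM, and the level that 0 counts still allow (3 counts) was 0.179 to 1.91 CPM, which covers counting error only. The defining adipocyte gene Adipoq was at 2704 CPM or more in every library. The mesothelial genes Msln and Wt1 were at 0 in all 8 SAT libraries and present in all 8 VAT libraries, so the depots matched their labels. The 5 genes of intestinal epithelium summed to 11.5 to 41.7 CPM in lean VAT and 13.4 to 15.5 in obese VAT. Of these, Fabp2 and Zg16 reached 15.1 and 5.37 CPM in lean VAT, and 0.191 and 0.286 in obese VAT. The part of gut tissue in the VAT results was not tested. Counts were assigned to transcripts, and genes with several transcripts could lose reads by it. Adgre1, the macrophage marker F4/80, had 12 counts over 16 libraries, and Trac, Pecam1 and Ly6g had 0, so a low row of a gene with several transcripts was not read as low expression.

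The family took a larger share of all counts in VAT from obese mice than in any other group. All members together held between 0.0846 and 0.124% of the counts in lean SAT, 0.117 and 0.136% in obese SAT, 0.126 and 0.173% in lean VAT, and 0.214 and 0.334% in obese VAT. The 4 obese VAT libraries lay above the other 12. Ccl6 and Ccl9 alone made up 27.7 to 35.8% of the members' counts in lean SAT and 37.5 to 51.7% in obese VAT. The receptor genes held 2.55 to 3.95% of them in SAT and 4.77 to 8.88% in VAT.

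Levels below are CPM scaled with the trimmed mean of M values (TMM). Per kilobase of the canonical transcript, Ccl6 stood first in every group, with a mean of 147 CPM per kb in lean SAT and 447 in obese VAT. Ccl11 (eotaxin), which attracts eosinophils, came second in every group, with 143 and 193 CPM per kb in these groups. In lean SAT the difference between Ccl6 and Ccl11 was smaller than the SD of either gene over 4 mice (32.2 and 18.6 CPM per kb). The third place differed. It was held by Ccl9 in lean SAT (42.3 CPM per kb) and obese VAT (172), by Ccl8 in obese SAT (97.7) and by Cxcl13 in lean VAT (91.8).

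In VAT from obese mice 23 of the 42 tested rows changed, 22 of them upward, and in SAT 7 did, all of them upward. Calls are from edgeR's quasi-likelihood test at an adjusted p below 0.05. Among all 13288 rows tested in VAT, 10.9% were called (6.84% upward and 4.08% downward). In SAT 11.0% of all rows were called (6.21% upward and 4.84% downward). The median log2 fold change (logFC, obese against lean) of the 42 rows was 0.94 in VAT and 0.43 in SAT, and that of all rows was 0.02 and 0.01. At the limit of the study, a logFC beyond 1.5, 12 member rows were called upward in VAT (2.33% of all rows upward and 0.835% downward) and 0 in SAT (1.5% of all rows upward and 1.25% downward).

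**Figure D1:**
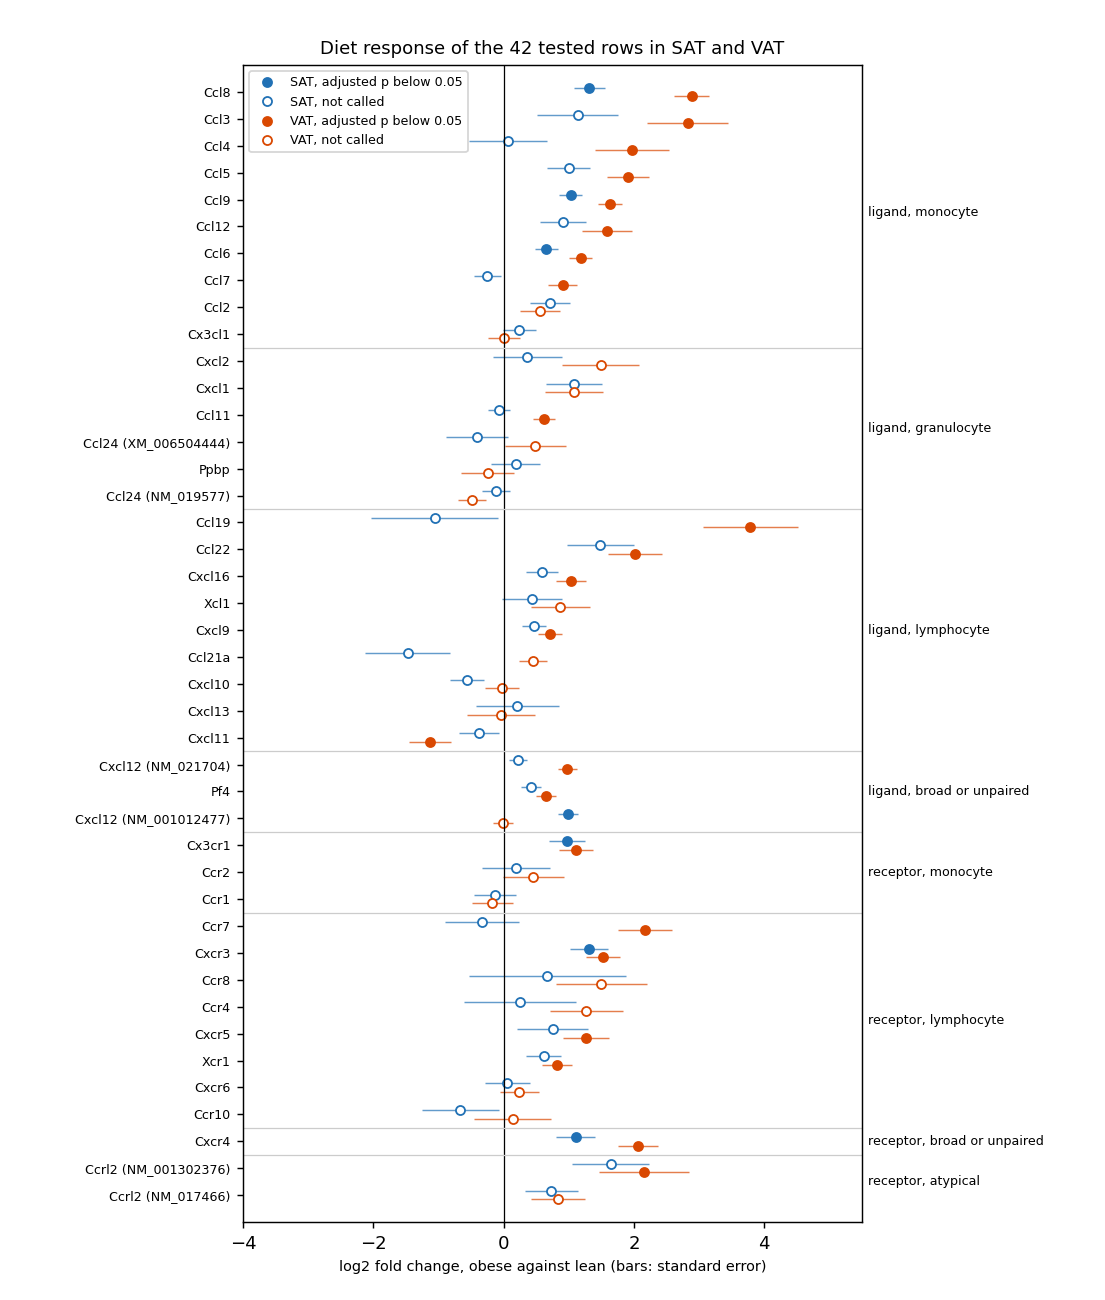
Log2 fold change, obese against lean, of the 42 tested rows in SAT (blue) and VAT (orange), grouped by role, with the standard error as bars; filled points passed an adjusted p of 0.05. Filled orange points, 22 to the right of 0 and 1 to the left (Cxcl11), outnumber the 7 filled blue points, all to the right.

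Of the called rows 6 were called in both depots, 17 in VAT alone and 1, a row of Cxcl12, in SAT alone, beside 3.91%, 7.01% and 7.14% of all rows. A call in a single depot does not show that the depots differ. The difference of the diet response, VAT minus SAT, was called for 6 rows, 5 with the larger response in VAT and 1 with the larger response in SAT, beside 2.17% of all rows. Among the 17 rows called in VAT alone, 4 had a called difference (Ccl7, Ccl11, Ccl19 and a row of Cxcl12), beside 12.7% of all rows called in VAT alone. The obese values lay above all lean values for 9 rows in SAT (9.61% of all rows did) and 17 in VAT (8.35%). They lay below all lean values for 0 rows in SAT (7.64% of all rows) and 1 in VAT (5.0%).

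Both ligands and receptors were among the rows called. In VAT from obese mice 15 of 28 ligand rows were higher and 1 lower, with a median logFC of 0.89, and 7 of 14 receptor rows were higher, with a median of 1.18 (10.9% of all rows were called). In SAT the counts were 4 of 28 ligand rows (median 0.39) and 3 of 14 receptor rows (median 0.64), beside 11.0% of all rows. Between depots, in mice on the obese diet, 11 of 14 receptor rows were higher in VAT, with a median VAT against SAT logFC of 1.76, and 13 of 28 ligand rows were higher and 1 lower, with a median of 0.58, beside 29.4% of all rows called (15.9% higher). In lean mice 7 of 14 receptor rows were higher in VAT (median 1.38), and 8 of 28 ligand rows were higher and 3 lower (median 0.33), beside 14.8% of all rows called (7.98% higher). These counts include Ccl19, Ccr4 and Ccr8, which passed the filter only through VAT. They share their libraries, and no test was made between the lists.

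The diet counts of the axes stand beside 6.21% of all rows upregulated in SAT, and 6.84% upregulated and 4.08% downregulated in VAT. Of 13 rows of the monocyte axis (ligands and receptors of monocytes and macrophages), 4 were upregulated in SAT and 9 in VAT, with median logFC of 0.71 and 1.18. The 10 ligand rows of that axis supplied 8 of the calls in VAT, with a median logFC of 1.61, and its 3 receptors supplied 1. Among these ligand calls were Ccl3, Ccl4 and Ccl5 (logFC 2.82, 1.97 and 1.91), of which Ccl5 is made by T and NK cells. Of 17 rows of the lymphocyte axis, which here includes Ccr7, found also on dendritic cells, and Xcr1, a receptor of dendritic cells with a lymphocyte ligand, 1 was upregulated in SAT (5.88%, no more than the share of all rows), and 8 were upregulated and 1 downregulated in VAT, with medians of 0.25 and 0.87. Between depots in obese mice, 13 of the 17 lymphocyte rows were higher in VAT (median VAT against SAT logFC 2.26), and 8 of the 13 monocyte rows were (median 0.93), beside 15.9% of all rows. In lean mice 8 lymphocyte rows were higher and 1 lower (median 1.66) and 6 monocyte rows were higher and 2 lower (median 0.43), beside 7.98% of all rows higher and 6.84% lower. The lymphocyte rows include Ccl19, Ccr4 and Ccr8, which passed the filter only through VAT. No test was made between the axes. The granulocyte axis (6 rows) had 0 calls in SAT and 1 in VAT, Ccl11, beside 11.0% and 10.9% of all rows called, which for 6 rows is not a result about the axis.

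The most abundant members, Ccl6 and Ccl9, are CC chemokines of rodents that act on Ccr1. They lie next to each other on the minus strand of chromosome 11 (GRCm39, Ccl9 at 83463745 to 83473161 and Ccl6 at 83478708 to 83483913). Ccl6 was at 225, 207, 152 and 263 CPM in SAT from lean mice 1 to 4 and at 374, 274, 317 and 369 in SAT from obese mice. In VAT it was at 276, 350.1, 245 and 263 CPM in lean mice and 646, 648, 451 and 829.9 in obese mice. All obese values were above all lean values in both depots. The logFC was 0.66 (SE 0.17, adjusted p = 0.0156) in SAT and 1.18 (SE 0.17, adjusted p = 9.66e-05) in VAT. The SAT call was lost without lean mouse 3 (adjusted p = 0.0681) or obese mouse 1 (0.0575), and without lean mouse 1 and obese mouse 1 together (0.0736).

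Ccl9 followed the same order of groups at a lower level. It was at 132, 111, 96 and 171 CPM in lean SAT and 269.7, 206, 267 and 294 in obese SAT. In VAT the values were 168, 192, 141 and 170.1 CPM in lean mice and 517, 525, 347 and 685 in obese mice, again with no overlap in either depot. The logFC was 1.03 (SE 0.18, adjusted p = 0.000641) in SAT and 1.63 (SE 0.18, adjusted p = 3.57e-06) in VAT, and both calls stayed in every alternative run except that the SAT value lies under the limit of 1.5. For neither gene was a difference between the depots in diet response called (adjusted p = 0.191 and 0.17).

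Ccl8, a monocyte chemoattractant that in mice also acts on Ccr8, had a higher logFC in VAT than any ligand row but that of Ccl19. It was at 21.9, 13.5, 15.6 and 30.9 CPM in lean SAT and 51.1, 48.6, 44.1 and 57.5 in obese SAT. VAT held 12.7, 6.26, 8.76 and 9.36 CPM in lean mice and 74.9, 40.5, 52.8 and 88.2 in obese mice. Lean VAT was the lowest group, below every other library, and the obese values of both depots overlapped. The logFC was 1.32 (SE 0.24, adjusted p = 0.000874) in SAT and 2.89 (SE 0.27, adjusted p = 2.47e-07) in VAT. The response was larger in VAT by 1.44 (SE 0.25, adjusted p = 0.00208), and this was the 1 called difference among the members that stayed in every alternative run other than the limit of 1.5, which it does not reach.

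Ccl12, a ligand of Ccr2 found in rodents, lies next to Ccl8 on the plus strand of chromosome 11 (Ccl12 at 81992645 to 81994466 and Ccl8 at 82006007 to 82007625). It was at 1.91, 1.13, 1.18 and 2.53 CPM in lean VAT and 4.58, 4.77, 2.77 and 7.0 in obese VAT, with no overlap and a logFC of 1.59 (SE 0.39, adjusted p = 0.00865). That call was lost without lean mouse 2 (adjusted p = 0.0577) or obese mouse 4 (0.0703). In SAT the values were 3.54, 1.96, 0.855 and 2.33 in lean and 4.52, 3.38, 4.47 and 4.07 in obese mice, a logFC of 0.91 (SE 0.36, adjusted p = 0.105) that missed the threshold.

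The stretches of 250 bases before the annotated starts of these 4 ligands are shown because the genes form a pair of neighbor pairs whose 4 rows were all upregulated in VAT, and they were chosen with these values known. They are from RefSeq on the build GRCm38.p6, on the strand of the gene, with matches to the motifs searched in capitals. The windows are chr11:82114935-82115184 (Ccl8, plus strand), chr11:82101595-82101844 (Ccl12, plus strand), chr11:83593088-83593337 (Ccl6, minus strand) and chr11:83578637-83578886 (Ccl9, minus strand).
Ccl8: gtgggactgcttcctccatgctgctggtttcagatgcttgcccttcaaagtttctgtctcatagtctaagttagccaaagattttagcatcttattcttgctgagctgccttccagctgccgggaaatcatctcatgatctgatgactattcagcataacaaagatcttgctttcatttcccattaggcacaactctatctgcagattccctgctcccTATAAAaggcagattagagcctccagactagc
Ccl12: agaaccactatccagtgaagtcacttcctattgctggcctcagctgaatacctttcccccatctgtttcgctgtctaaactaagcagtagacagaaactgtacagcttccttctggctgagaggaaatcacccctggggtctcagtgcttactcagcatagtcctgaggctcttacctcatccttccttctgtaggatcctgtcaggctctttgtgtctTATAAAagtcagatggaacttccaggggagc
Ccl6: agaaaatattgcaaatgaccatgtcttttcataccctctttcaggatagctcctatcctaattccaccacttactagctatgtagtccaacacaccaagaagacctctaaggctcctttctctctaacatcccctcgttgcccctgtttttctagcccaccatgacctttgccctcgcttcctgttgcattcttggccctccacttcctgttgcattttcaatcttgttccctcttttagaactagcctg
Ccl9: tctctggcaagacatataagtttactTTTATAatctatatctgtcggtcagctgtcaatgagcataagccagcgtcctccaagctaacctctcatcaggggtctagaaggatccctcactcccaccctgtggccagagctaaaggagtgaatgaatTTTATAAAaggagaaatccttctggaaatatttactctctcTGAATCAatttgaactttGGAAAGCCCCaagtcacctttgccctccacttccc
Each window was searched on both strands for 5 motifs. The TATA box was searched as TATAAA. The site of AP-1 factors was searched as TGANTCA, and that of STAT factors as TTCNNNGAA. The interferon-stimulated response element was searched as GAAA repeated after a gap of any 2 bases, and kappa B by its consensus. Ccl8 and Ccl12 each held TATAAA, 32 to 27 and 31 to 26 bases before the start. Ccl9 held 3 matches to TATAAA, 2 of them overlapping on opposite strands, TGAATCA at 53 to 47 and a kappa B match, GGAAAGCCCC, at 35 to 26 bases before the start. The window of Ccl6 held none of the 5. Of 32851 such windows over the genome, 12.4% hold TATAAA, 6.75% TGANTCA, 3.90% kappa B, 2.98% the interferon element and 7.02% TTCNNNGAA. Of 30 windows of 28 tested member genes, 9, 4, 5, 2 and 0 hold these motifs in the same order. A match describes these letters and is not a measured binding site.

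Ccl7, which recruits monocytes through Ccr2, responded in VAT and not detectably in SAT. It was at 9.55, 13.3, 11.9 and 16.6 CPM in lean VAT and 20.2, 30.7, 21.5 and 25.9 in obese VAT, all obese values being higher. In SAT it was at 26.5, 17.5, 22.8 and 35.4 CPM in lean and 18.1, 20.2, 17 and 30.2 in obese mice, which overlapped. The logFC was 0.91 (SE 0.22, adjusted p = 0.00983) in VAT and -0.25 (SE 0.21, adjusted p = 0.513) in SAT, and the difference was 1.14 (SE 0.25, adjusted p = 0.016). In lean mice Ccl7 was lower in VAT than in SAT in 4 of 4 mice (logFC -0.92 (SE 0.18, adjusted p = 0.00111)), as was Ccl8 (logFC -1.14 (SE 0.19, adjusted p = 0.000129)), and in obese mice neither depot difference was called (adjusted p = 0.363 and 0.175). The VAT call of Ccl7 was lost without obese mouse 2 (adjusted p = 0.0638). Its difference call was lost without lean mouse 3 (0.0558), lean mouse 4 (0.0645) or obese mouse 2 (0.0596), and without the mouse block (0.0737).

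Ccl2 (MCP-1), the ligand most often named for monocyte recruitment to fat, was called in no comparison. It was at 14.5, 10.7, 7.5 and 28.2 CPM in lean SAT and 33.5, 20.1, 19.6 and 23.6 in obese SAT. Its VAT values were 13.4, 18.9, 12.2 and 26.2 CPM in lean and 26.4, 35.9, 20.6 and 23.8 in obese mice. The groups overlapped in both depots, with lean mouse 4 the highest lean mouse in each. The logFC was 0.71 (SE 0.30, adjusted p = 0.139) in SAT and 0.56 (SE 0.31, adjusted p = 0.284) in VAT.

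**Figure D2:**
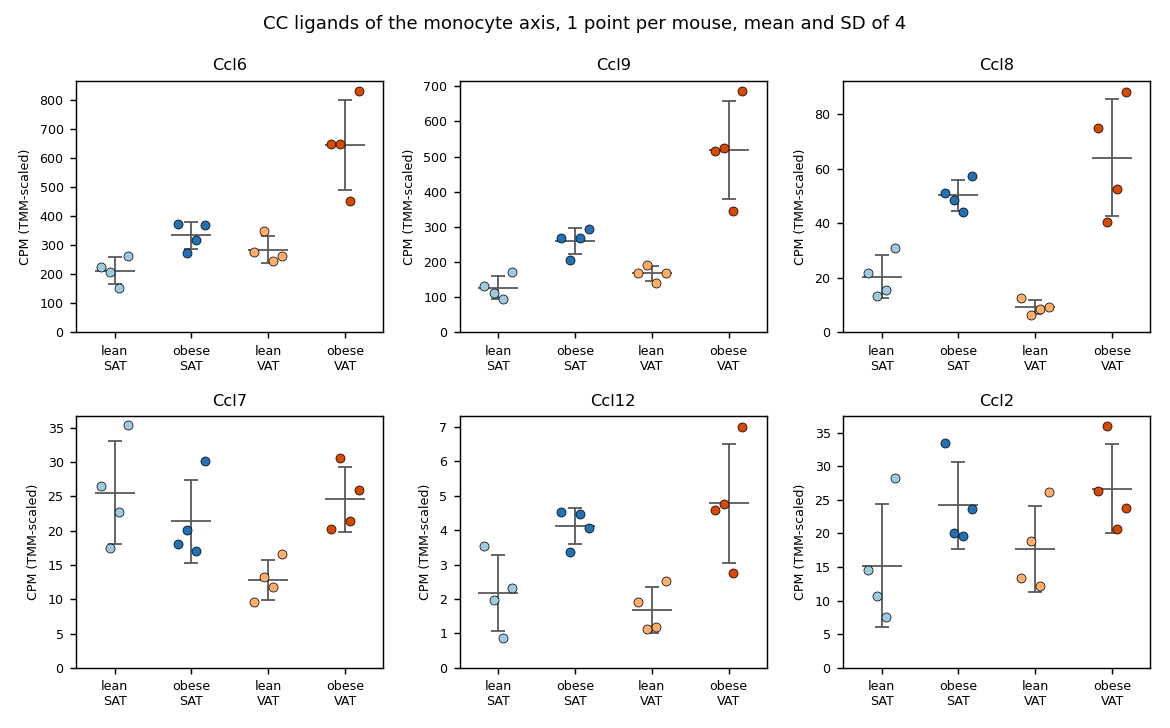
TMM-scaled CPM of 6 CC ligands of the monocyte axis in the 4 groups, 1 point per mouse, with the mean and SD of 4 mice. Ccl6, Ccl9 and Ccl8 were higher in obese than in lean mice in both depots without overlap, Ccl7 and Ccl12 in VAT, and the groups of Ccl2 overlapped in both depots.

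The inflammatory ligands Ccl3, Ccl4 and Ccl5 were low in SAT and higher in VAT from obese mice. Ccl5 (RANTES), made by T and NK cells, was at 10.2, 6.02, 5.98 and 5.17 CPM in lean VAT and 21, 29.1, 18.5 and 25.2 in obese VAT, with no overlap and a logFC of 1.91 (SE 0.32, adjusted p = 0.00031). In SAT it was at 2.14, 2.52, 4.84 and 4.45 CPM in lean and 9.89, 3.38, 4.26 and 9.76 in obese mice, where obese mice 1 and 4 stood above the rest and the logFC of 1.00 (SE 0.33, adjusted p = 0.0527) just missed the threshold. Ccl3 (MIP-1 alpha) had 12 counts over the 4 lean VAT libraries and 83 over the obese ones, at 0, 0.477, 0.321 and 0.11 and 2.67, 1.81, 0.859 and 3.84 CPM. Its logFC in VAT was 2.82 (SE 0.63, adjusted p = 0.0043). The 0 of lean mouse 1 allows 1.91 CPM, above 2 of the obese values. Of its 75-base stretches 18.2% also occur in Gm53692. Ccl4 (MIP-1 beta) had 17 and 74 counts, at 1.91, 0.417, 0.427 and 0.33 CPM in lean and 1.91, 1.07, 1.62 and 3.33 in obese VAT, and the groups overlapped through lean mouse 1. Its logFC was 1.97 (SE 0.57, adjusted p = 0.0259), and the call was lost without lean mouse 2 (adjusted p = 0.108), lean mouse 3 (0.0904), lean mouse 4 (0.0969) or obese mouse 4 (0.183).

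Of the 3 tested receptors of the monocyte axis, Cx3cr1 was called for diet and Ccr1 and Ccr2 were not. Cx3cr1, the fractalkine receptor of resident macrophages and patrolling monocytes, was at 5.35, 4.49, 3.61 and 6.15 CPM in lean SAT and 13.6, 7.81, 9.08 and 7.23 in obese SAT. VAT held 14, 16.9, 6.95 and 17.2 CPM in lean and 21, 36.9, 25.3 and 34.2 in obese mice. The obese values were above the lean values in both depots, with logFC of 0.97 (SE 0.28, adjusted p = 0.0266) in SAT and 1.11 (SE 0.26, adjusted p = 0.00622) in VAT. The SAT call was lost without lean mouse 2 (adjusted p = 0.0725), obese mouse 1 (0.103) or obese mouse 3 (0.0526), with limma voom (0.0531) and without lean mouse 1 and obese mouse 1 together (0.118). Its ligand Cx3cl1 was not called for diet, with logFC of 0.24 (SE 0.25, adjusted p = 0.603) in SAT and 0.01 (SE 0.25, adjusted p = 0.991) in VAT.

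Ccr1, which binds Ccl6, Ccl9, Ccl3 and Ccl5, was not called for diet in either depot. It was at 10.1, 14.7, 9.4 and 24.4 CPM in lean SAT, 10.6, 9.61, 13.5 and 18.2 in obese SAT, 27.4, 36.2, 17.3 and 25.1 in lean VAT and 18.7, 22.2, 12.2 and 39.8 in obese VAT. The lean and obese values overlapped in both depots. The logFC was -0.13 (SE 0.32, adjusted p = 0.858) in SAT and -0.17 (SE 0.32, adjusted p = 0.802) in VAT. The tested row of Ccr2, the receptor of Ccl2, Ccl7 and Ccl12, held 42 to 137 counts per group. It was at 1.48, 0.982, 0.285 and 2.97 CPM in lean SAT, 0.843, 0.95, 2.89 and 1.08 in obese SAT, 3.82, 2.56, 1.82 and 4.29 in lean VAT and 7.26, 2.38, 4.2 and 3.84 in obese VAT, and its logFC for diet was 0.19 (SE 0.52, adjusted p = 0.873) in SAT and 0.45 (SE 0.47, adjusted p = 0.624) in VAT. This row is a predicted transcript, 1 of 4 of the gene, so its level understates the gene.

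The summed levels of macrophage markers were higher in obese than in lean mice in both depots, which was not so for all of these ligands. In lean mice the macrophage sum was also higher in VAT than in SAT, whereas Ccl7 and Ccl8 were lower in VAT. Lyz2 was the largest part of that sum. Its means were 812 CPM in lean SAT, 1237 in obese SAT, 1428 in lean VAT and 3440 in obese VAT. The summed level of 8 macrophage genes (7 of them tested, Adgre1 near 0) was 1248 to 1722 CPM in lean SAT, 1955 to 2894 in obese SAT, 2170.8 to 2894 in lean VAT and 4454 to 6865 in obese VAT. The 6 genes of lipid-associated macrophages (5 tested, Spp1 near 0) summed to 141 to 207, 268 to 359, 146 to 213 and 533 to 1858 CPM. The 4 monocyte genes (2 tested) summed to 12.6 to 17.4, 22.6 to 37.4, 17.8 to 26.3 and 24.4 to 43.6 CPM. The first 2 lists did not overlap between lean and obese mice in either depot. The 6 adipocyte genes summed to 41024 to 57723, 36968 to 52026, 21303 to 34374 and 15268 to 26021 CPM. Of their 12 tested rows, 7 were lower in VAT from obese mice than in lean VAT (median logFC -0.66), 1 was lower in SAT (median -0.15), and 10 were lower in VAT than in SAT of obese mice (median -0.81), beside 4.08%, 4.84% and 13.5% of all rows lower. The part of these cells in the results for the monocyte axis was not tested.

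Cxcr4, the receptor of Cxcl12 on most leukocytes, was upregulated in both depots. It was at 5.1, 2.03, 2.67 and 2.75 CPM in lean VAT and 9.17, 11.5, 8.59 and 15.2 in obese VAT, with no overlap, and at 2.8, 2.24, 2.09 and 2.54 in lean and 6.98, 2.43, 6.12 and 5.15 in obese SAT. The logFC was 2.06 (SE 0.31, adjusted p = 0.000106) in VAT and 1.11 (SE 0.30, adjusted p = 0.0197) in SAT. In SAT obese mouse 2 lay among the lean mice, and the call was lost without lean mouse 2 (adjusted p = 0.0550), lean mouse 3 (0.0743), obese mouse 1 (0.0793) or obese mouse 3 (0.0614), and without lean mouse 1 and obese mouse 1 together (0.0658).

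Cxcl12 (SDF-1), the stromal ligand of Cxcr4, was counted on 2 tested rows, of which 1 was called for diet in SAT and the other in VAT. Isoform use and the assignment of reads shared by the transcripts cannot be told apart in these counts. The row NM_001012477 was at 143, 114, 115 and 110.2 CPM in lean SAT and 204, 283, 261 and 212 in obese SAT, with no overlap. In VAT it was at 146, 129.5, 201 and 155 CPM in lean and 116, 164, 174 and 173 in obese mice, which overlapped. Its logFC was 0.99 (SE 0.15, adjusted p = 0.000184) in SAT and -0.00 (SE 0.15, adjusted p = 0.992) in VAT. The row NM_021704 was at 111, 98.3, 89.2 and 125 CPM in lean and 116, 114, 126 and 137 in obese SAT, and at 79.6, 95.7, 120.1 and 85.1 in lean and 169, 167, 180.2 and 235 in obese VAT. It rose without overlap in VAT (logFC 0.97 (SE 0.14, adjusted p = 0.000101)) and was not called in SAT (logFC 0.22 (SE 0.14, adjusted p = 0.361)). The difference between depots was -0.999 (SE 0.18, adjusted p = 0.0029) for the first row and 0.75 (SE 0.19, adjusted p = 0.038) for the second.

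The share of the counts of both rows that fell on NM_001012477 restates these values within each library. It was 56.3, 53.7, 56.3 and 46.8% (mean 53.3 ± 4.48, SD, n = 4) in lean SAT and 63.7, 71.3, 67.5 and 60.8% (mean 65.8 ± 4.59, SD, n = 4) in obese SAT. In VAT it was 64.7, 57.5, 62.6 and 64.5% (mean 62.3 ± 3.34, SD, n = 4) in lean mice and 40.7, 49.4, 49.1 and 42.4% (mean 45.4 ± 4.5, SD, n = 4) in obese mice. The share was thus 12.5 percentage points higher with obesity in SAT and 16.9 points lower (-16.9) in VAT, with no overlap in either depot. VAT minus SAT, the share was 9.02 points in lean mice, where 0 of 4 mice had the lower share in VAT, and -20.4 points in obese mice, where 4 of 4 did. These shares are given as a description and no test of them is reported, since the rows themselves prompted them. With the counts of Cxcl12 summed over its rows, the gene was called upward in both depots (logFC 0.67 (SE 0.13, adjusted p = 0.00146) in SAT and 0.40 (SE 0.13, adjusted p = 0.044) in VAT), and the difference between depots was -0.27 (adjusted p = 0.488). The second row's difference call was lost without each of 7 of the 8 mice, all but lean mouse 3 (adjusted p = 0.0635 to 0.151), without lean mouse 1 and obese mouse 1 together (0.1), with no filter on low counts (0.0842) and without the mouse block (0.0737).

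**Figure D3:**
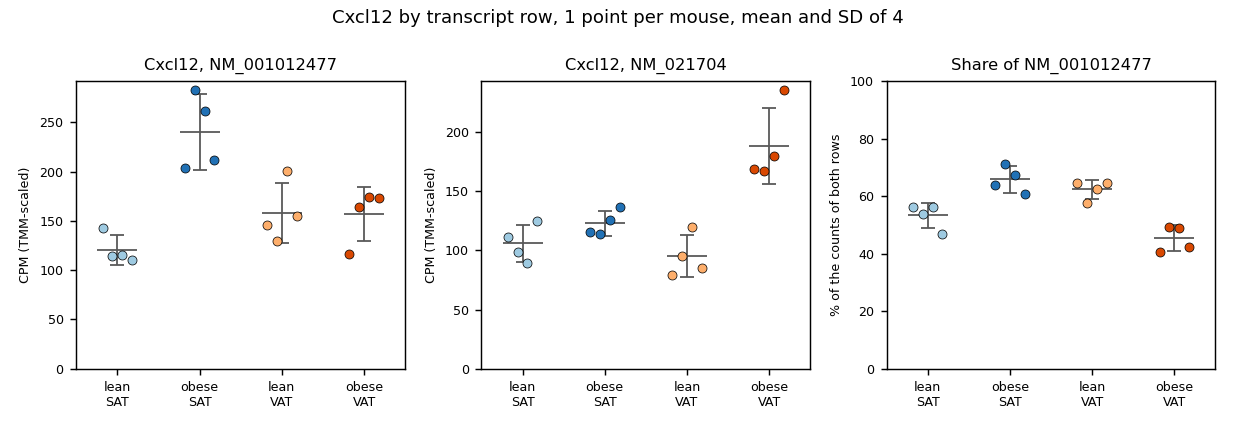
TMM-scaled CPM of the 2 tested rows of Cxcl12 and the share of NM_001012477 in the counts of both, 1 point per mouse, with the mean and SD of 4 mice. NM_001012477 was highest in obese SAT and NM_021704 in obese VAT, so the share ran from 45.4% in obese VAT to 65.8% in obese SAT.

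The Cxcr3 axis of T and NK cells gave a called receptor in both depots and mixed ligands. Cxcr3 was at 1.48, 1.54, 2.85 and 2.12 CPM in lean SAT and 5.37, 3.69, 3.78 and 7.0 in obese SAT. Its VAT values were 8.92, 8.05, 5.02 and 6.16 CPM in lean and 24.4, 13.8, 16.8 and 24.1 in obese mice. There was no overlap in either depot, and the logFC was 1.31 (SE 0.30, adjusted p = 0.00555) in SAT and 1.52 (SE 0.26, adjusted p = 0.000424) in VAT. With lean mouse 1 and obese mouse 1 both left out, the SAT call was lost (adjusted p = 0.0504).

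Of its ligands, Cxcl9 was the most abundant. The 1 member row called downward for diet was a non-coding row of Cxcl11, so a fall of a working ligand is not shown. Cxcl9 was at 61.8, 66.5, 82.9 and 80.1 CPM in lean VAT and 138, 79.8, 146 and 118 in obese VAT, and obese mouse 2 lay within the lean range. Its logFC was 0.71 (SE 0.18, adjusted p = 0.0136) in VAT and 0.47 (SE 0.18, adjusted p = 0.102) in SAT, and the VAT call was lost without lean mouse 2 (adjusted p = 0.0569), obese mouse 1 (0.0560) or obese mouse 3 (0.0594), and without lean mouse 1 and obese mouse 1 together (0.102). Cxcl10 was not called for diet, with logFC of -0.56 (SE 0.26, adjusted p = 0.168) in SAT and -0.02 (SE 0.26, adjusted p = 0.976) in VAT. Cxcl11, on a row that RefSeq classes as non-coding, was at 10.2, 5.37, 6.73 and 4.95 CPM in lean VAT and 4.58, 2.96, 3.72 and 1.11 in obese VAT, all obese values being lower. Its logFC was -1.13 (SE 0.33, adjusted p = 0.0255), and the call was lost without lean mouse 3 (adjusted p = 0.0736), obese mouse 2 (0.0657) or obese mouse 4 (0.118), and in a fit of the 8 VAT libraries (0.0752). Of the 75-base stretches of Cxcl11 transcripts, 40.5% also occur in the transcript Gm2673 on the other strand. Pf4 (platelet factor 4), which can also act on Cxcr3, was at 61.1, 41.4, 37 and 36.5 CPM in lean and 55.4, 64.3, 73.6 and 72.6 in obese VAT, with a logFC of 0.65 (SE 0.15, adjusted p = 0.00759) that was lost without lean mouse 4 (adjusted p = 0.0593).

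Cxcl16 and its receptor Cxcr6, found on memory T and NKT cells, gave a ligand that responded and a receptor that did not pass the test. Cxcl16, on a non-coding row, was at 3.38, 4.21, 3.13 and 4.87 CPM in lean SAT, 5.21, 5.38, 7.22 and 4.92 in obese SAT, 10.2, 5.78, 4.92 and 8.48 in lean VAT and 14.5, 12.2, 11.5 and 18.1 in obese VAT. The obese values exceeded the lean values in both depots, with logFC of 1.03 (SE 0.24, adjusted p = 0.0053) in VAT and 0.58 (SE 0.24, adjusted p = 0.133) in SAT. Of the 75-base stretches of its transcripts 74.1% also occur in Zmynd15 or Med11, which overlap it on the other strand, so this row is uncertain. Cxcr6 was at 12.1, 17.2, 9.51 and 13.3 CPM in lean and 13.7, 10.7, 18 and 19.6 in obese VAT, with logFC of 0.24 (SE 0.30, adjusted p = 0.692) in VAT and 0.05 (SE 0.35, adjusted p = 0.951) in SAT.

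Xcr1, the receptor that marks cross-presenting dendritic cells, was at 5.73, 6.74, 3.95 and 6.27 CPM in lean VAT and 8.78, 11.3, 9.93 and 9.9 in obese VAT, without overlap. Its logFC was 0.82 (SE 0.23, adjusted p = 0.0212) in VAT and 0.61 (SE 0.26, adjusted p = 0.144) in SAT. The VAT call was lost without lean mouse 3 (adjusted p = 0.112), obese mouse 2 (0.0763), obese mouse 3 (0.0519) or obese mouse 4 (0.0583), and with no filter on low counts (0.121). Of the 75-base stretches of its transcripts 23.2% also occur in other genes, among them Gm57030. Its ligand Xcl1, made by NK and T cells, was not called, at means of 1.47 ± 0.75 CPM in lean and 2.3 ± 0.381 in obese VAT (SD, n = 4).

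**Figure D4:**
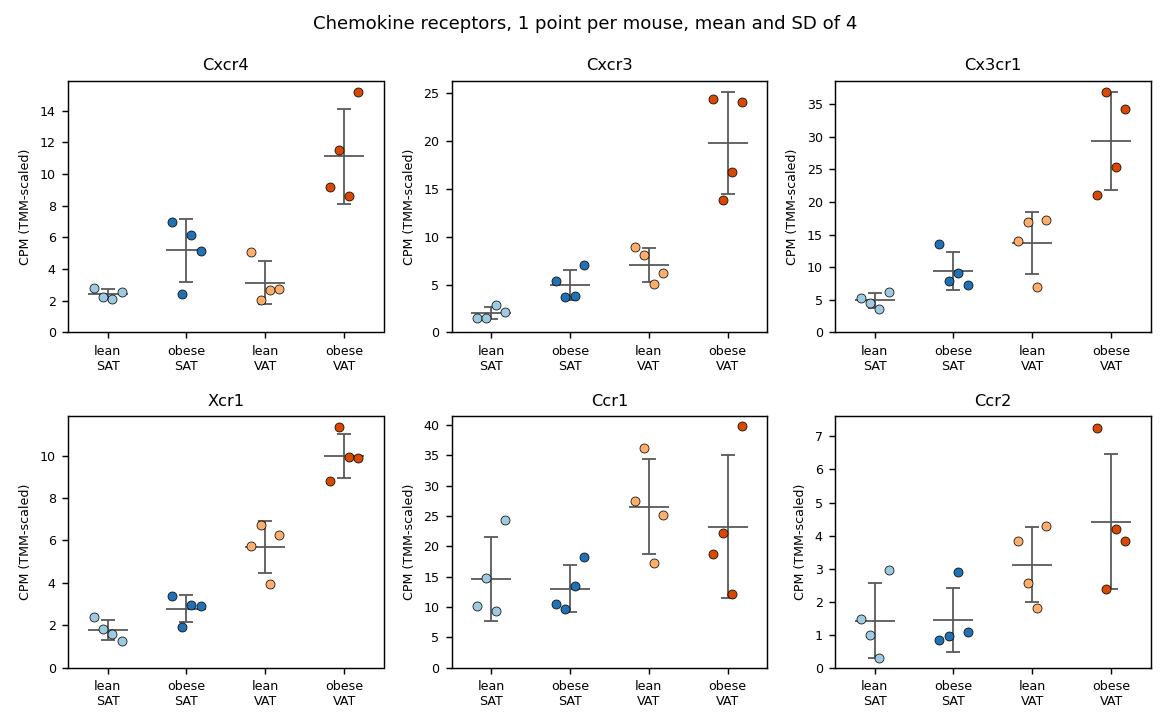
TMM-scaled CPM of 6 chemokine receptors in the 4 groups, 1 point per mouse, with the mean and SD of 4 mice. Cxcr3 and Cx3cr1 were higher in obese mice in both depots without overlap, Cxcr4 and Xcr1 in VAT, and the lean and obese values of Ccr1 and Ccr2 overlapped in both depots.

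Among the lymphoid ligands and receptors, Ccl21a, Cxcl13 and Cxcr5 separated the depots and Ccl19 and Ccr7 separated obese VAT from the rest. Ccl21a, which holds Ccr7-bearing cells in lymph vessels and T cell zones, was at 48.4, 42.9, 48 and 32.1 CPM in lean VAT and 53.5, 40.8, 78.1 and 59.4 in obese VAT. In SAT it was at 0.741, 0.28, 0.095 and 0.848 and 0.23, 0, 0.206 and 0.154 CPM, with 16 counts in the 4 lean and 8 in the 4 obese libraries. VAT exceeded SAT in 8 of 8 mice. The VAT against SAT logFC was 6.56 (SE 0.30, adjusted p = 4.06e-13) in lean and 8.45 (SE 0.32, adjusted p = 1.85e-14) in obese mice, and the diet response was not called in either depot (adjusted p = 0.16 in SAT and 0.214 in VAT). Of its 75-base stretches 38.8% are shared with near-identical copies such as Ccl21b and Ccl21d, so the copies cannot be told apart with certainty.

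Ccl19, the other ligand of Ccr7, had few counts outside obese VAT. The 4 libraries of obese VAT held 121 counts, and the groups of lean VAT, lean SAT and obese SAT held 8, 9 and 6. It was at 0, 0.238, 0.214 and 0.22 CPM in lean VAT and 2.29, 6.74, 2.39 and 0.683 in obese VAT, where obese mouse 2 was the highest and obese mouse 4 the lowest. The 0 of lean mouse 1 allows 1.91 CPM, above 1 of the obese values. The logFC in VAT was 3.79 (SE 0.73, adjusted p = 0.00128), and the difference between depots was 4.96 (SE 1.11, adjusted p = 0.0182). The row passed the filter only through obese VAT, the group in which it was high. These calls are therefore not separate support for a rise there. The difference call was lost without lean mouse 3 (adjusted p = 0.180), without the mouse block (0.0697) and with limma voom (0.188). Of its 75-base stretches 67.9% are shared with pseudogenes and predicted genes such as Ccl19-ps1 and Ccl19-ps2.

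Ccr7, the receptor of both on naive T cells and migrating dendritic cells, was at 1.91, 1.07, 0.855 and 0.771 CPM in lean VAT and 4.96, 6.33, 2.29 and 4.61 in obese VAT, with no overlap. Its logFC was 2.17 (SE 0.42, adjusted p = 0.00123) in VAT and -0.33 (SE 0.57, adjusted p = 0.778) in SAT, and the difference between depots was not called (2.32 (SE 0.81, adjusted p = 0.15)). In obese mice it was higher in VAT than in SAT in 4 of 4 mice (logFC 3.58 (SE 0.48, adjusted p = 5.37e-06)).

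Cxcl13 and Cxcr5, ligand and receptor of the B cell follicle, were both far higher in VAT. Cxcl13 was at 2.96, 1.96, 4.84 and 16.3 CPM in lean SAT and 7.21, 4.75, 6.46 and 8.3 in obese SAT. In VAT it was at 169, 138, 20.7 and 94.5 CPM in lean and 19.5, 145, 69.2 and 161 in obese mice, and the mice within each VAT group spanned a wide range. Cxcr5 was at 1.48, 0.701, 0.665 and 0.424 and 1.23, 0.95, 2.2 and 1.61 CPM in lean and obese SAT and at 38.2, 17, 7.69 and 10.8 and 35.1, 39.6, 23.2 and 56.6 in lean and obese VAT. Both genes were higher in VAT in 8 of 8 mice. The VAT against SAT logFC of Cxcl13 was 3.97 (SE 0.52, adjusted p = 6.12e-06) in lean and 3.62 (SE 0.49, adjusted p = 6.16e-06) in obese mice, and that of Cxcr5 was 4.38 (SE 0.32, adjusted p = 1.10e-09) and 4.59 (SE 0.26, adjusted p = 1.57e-11). For diet, Cxcl13 was not called in either depot (VAT logFC -0.04 (SE 0.52, adjusted p = 0.98)). Cxcr5 rose in VAT (logFC 1.26 (SE 0.35, adjusted p = 0.0205)), although lean mouse 1 lay among the obese mice. This call was lost without lean mouse 2, 3 or 4 (adjusted p = 0.0566, 0.0962 and 0.116) or obese mouse 2 or 4 (0.0657 and 0.133), with DESeq2 (0.151) and in a fit of the 8 VAT libraries (0.0612).

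Ccl22, a dendritic cell and macrophage ligand that attracts regulatory T cells through Ccr4, rose in VAT. It was at 5.73, 4.59, 3.1 and 6.38 CPM in lean VAT and 13, 39.8, 9.55 and 13.8 in obese VAT, and at 1.73, 0.14, 0.855 and 1.7 in lean and 2.61, 1.9, 4.54 and 3.31 in obese SAT, with no overlap in either depot. The logFC was 2.01 (SE 0.41, adjusted p = 0.00239) in VAT and 1.49 (SE 0.51, adjusted p = 0.064) in SAT. The size of the VAT response leans on obese mouse 2 (39.8 CPM, next 13.8), although the call stayed without that mouse. Ccr4 had 4 to 47 counts per group, and Ccr8, on which Ccl8 acts in mice, had 2 to 42. Neither was called for diet (in VAT adjusted p = 0.164 for Ccr4 and 0.188 for Ccr8). In obese mice both were higher in VAT than in SAT (logFC 3.01 (SE 0.71, adjusted p = 0.00237) for Ccr4 and 3.26 (SE 0.83, adjusted p = 0.00487) for Ccr8), in 4 of 4 mice each. Both rows passed the filter only through VAT, so these calls lean on the group that admitted them.

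**Figure D5:**
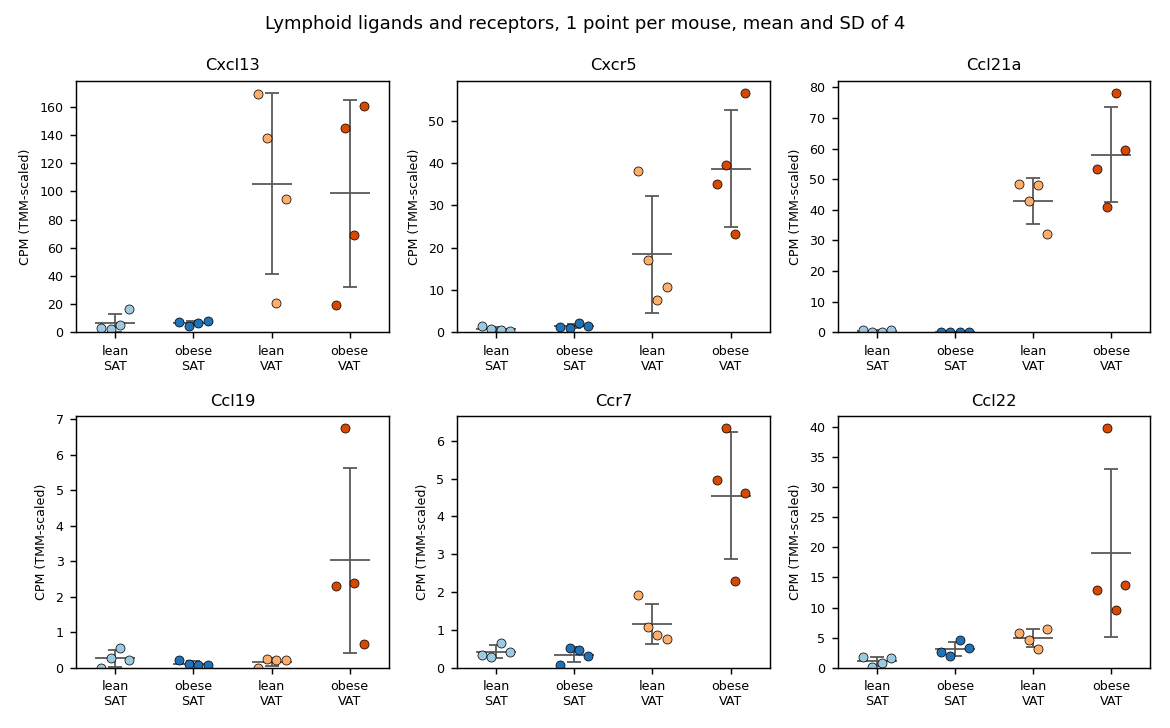
TMM-scaled CPM of 6 lymphoid ligands and receptors in the 4 groups, 1 point per mouse, with the mean and SD of 4 mice. Ccl21a, Cxcl13 and Cxcr5 were higher in every VAT library than in every SAT library, and Ccr7 and Ccl19 were highest in obese VAT.

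Summed levels of lymphocyte markers were also higher in every VAT library of a diet than in the SAT libraries of that diet. The 9 T and NK cell genes (4 tested, Trac at 0 and Cd4 at 16 counts) summed to 6.03 to 10.4 CPM in lean SAT, 8.13 to 20.7 in obese SAT, 13.7 to 23.6 in lean VAT and 43.5 to 73.8 in obese VAT. Of their 4 tested rows, 1 was called between depots in lean and 4 in obese mice, beside 14.8% and 29.4% of all rows. In lean mice Nkg7 overlapped between depots (3.09 to 5.32 CPM in SAT and 4.17 to 9.55 in VAT), and Ncr1 had a lower mean in VAT (0.0894 against 0.339 CPM). The 6 B and plasma cell genes (6 tested) summed to 14.3 to 20.5, 8.87 to 46.8, 109.9 to 708 and 679.6 to 1891 CPM. The 6 genes of lymph node stroma, follicular dendritic cells and high endothelial venules (2 tested) summed to 7.08 to 9.54, 7.92 to 11.9, 17.6 to 38.2 and 29.4 to 49.3 CPM, and of these Glycam1 had 2 counts, Cr2 20, Madcam1 29 and Il7 52 over all libraries. Pdpn, which mesothelium also makes, carried most of this sum, with means of 6.96, 8.44, 23.7 and 29.6 CPM. The part of lymphocytes or of lymph node tissue in the results for the lymphocyte axis was not tested.

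Of the granulocyte ligands, Ccl11 changed in VAT and the other 5 rows were not called for diet. Ccl11 was at 106, 137, 177 and 137 CPM in lean VAT and 155, 204, 276 and 224 in obese VAT, where obese mouse 1 lay within the lean range. In SAT it was at 145, 141, 165 and 187 CPM in lean and 136, 128, 177 and 166 in obese mice. The logFC was 0.62 (SE 0.16, adjusted p = 0.0158) in VAT and -0.07 (SE 0.16, adjusted p = 0.842) in SAT, with a difference of 0.69 (SE 0.17, adjusted p = 0.0319). The VAT call was lost without lean mouse 1 (adjusted p = 0.0570), lean mouse 4 (0.0544), obese mouse 3 (0.0750) or obese mouse 4 (0.0536). The difference call was lost without lean mouse 1 (0.0515), lean mouse 4 (0.116), obese mouse 2 (0.0822), obese mouse 3 (0.0902) or obese mouse 4 (0.0713), without the mouse block (0.165), with no filter on low counts (0.132) and with limma voom (0.0713). The rows of Cxcl1, Cxcl2, Ccl24 and Ppbp had adjusted p of 0.111 to 0.822 for diet in SAT and of 0.119 to 0.777 in VAT.

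Ccrl2, an atypical receptor that binds chemerin and does not signal, had 2 tested rows. The row NM_001302376 was at 0, 0.119, 0.107 and 0.661 CPM in lean VAT and 0.382, 1.23, 1.34 and 1.28 in obese VAT, which overlapped through lean mouse 4 and obese mouse 1, on 9 and 45 counts. Its logFC was 2.15 (SE 0.69, adjusted p = 0.0472). The call was lost without each of lean mice 1, 2 and 3 and obese mice 2, 3 and 4 (adjusted p = 0.0671 to 0.190), with the counts of the gene summed (0.0826) and in a fit of the 8 VAT libraries (0.0668). The row NM_017466 had more counts, 57 in lean and 114 in obese VAT, and was not called. It was at 1.91, 1.31, 1.6 and 1.87 CPM in lean and 0.764, 3.29, 2.1 and 4.27 in obese VAT, with logFC of 0.83 (SE 0.41, adjusted p = 0.219) in VAT and 0.73 (SE 0.41, adjusted p = 0.27) in SAT.

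More members were higher than lower in VAT against SAT, in both diets. In lean mice 15 of 42 rows were higher and 3 lower in VAT than in SAT, beside 14.8% of all rows called (7.98% higher). In obese mice 24 were higher and 1 lower, beside 29.4% of all rows (15.9% higher). With a logFC beyond 1.5, 7 rows were higher in lean and 15 in obese VAT and 0 lower in either, beside 3.75% of all rows higher and 1.69% lower in lean mice and 6.3% higher and 3.29% lower in obese mice. The medians of the members were 0.42 and 0.94, and those of all rows 0.01 and 0.04. Calls in both comparisons were made for 14 rows, beside 10.8% of all rows. VAT exceeded SAT in every lean and every obese mouse for 13 rows, 5 of ligands and 8 of receptors, beside 9.5% of all rows. The 3 rows lower in lean VAT were Ccl8, Ccl7 and Cxcl9 (logFC -0.48 (SE 0.13, adjusted p = 0.0116)), and the row lower in obese VAT was Cxcl12 NM_001012477 (logFC -0.62 (SE 0.12, adjusted p = 0.000649)).

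Of the receptors, 5 were called between depots in both diets in every alternative run, apart from the limit of 1.5, which the lean logFC of Cx3cr1 does not reach. These were Cxcr5, described above, and 4 others. Cxcr3 was higher in VAT by a logFC of 1.74 (SE 0.28, adjusted p = 0.000118) in lean and 2.00 (SE 0.22, adjusted p = 5.05e-07) in obese mice. Cxcr6 was higher by 1.93 (SE 0.27, adjusted p = 1.85e-05) and 2.26 (SE 0.25, adjusted p = 4.52e-07), and Xcr1 by 1.66 (SE 0.29, adjusted p = 0.000315) and 1.86 (SE 0.25, adjusted p = 5.72e-06). Cx3cr1 was higher by 1.44 (SE 0.25, adjusted p = 0.000277) and 1.67 (SE 0.22, adjusted p = 5.18e-06). For these 5 receptors VAT exceeded SAT in all 8 mice. Ccr1 and the row of Ccr2 were also called in both diets (logFC in obese mice 0.76 (SE 0.22, adjusted p = 0.012) for Ccr1 and 1.58 (SE 0.38, adjusted p = 0.00308) for Ccr2). Their lean calls were lost without lean mouse 1 (adjusted p = 0.0541 for Ccr1 and 0.103 for Ccr2) or lean mouse 2 (0.0826 and 0.129), and that of Ccr2 also without lean mouse 3 (0.205), obese mouse 2 (0.0516) or obese mouse 4 (0.0554). Both lean calls were also lost without the mouse block (0.072 and 0.14) and without lean mouse 1 and obese mouse 1 together (0.0651 and 0.0681), and that of Ccr2 with legacy=FALSE in edgeR (0.0633). The obese call of Ccr1 was lost without obese mouse 2 (0.0957) or obese mouse 4 (0.117).

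Several other ligands, of more than 1 axis, were also higher in VAT than in SAT of obese mice. In obese mice Ccl6 was higher in VAT by a logFC of 0.93 (SE 0.13, adjusted p = 1.14e-05), Ccl9 by 0.97 (SE 0.14, adjusted p = 1.44e-05) and Ccl5 by 1.88 (SE 0.28, adjusted p = 1.97e-05). Cxcl16 was higher by 1.29 (SE 0.23, adjusted p = 0.000134), Ccl11 by 0.49 (SE 0.12, adjusted p = 0.00307) and Cxcl10 by 0.94 (SE 0.22, adjusted p = 0.00209). Ccl22 was higher in VAT by 2.24 (SE 0.48, adjusted p = 0.00228) in lean and 2.38 (SE 0.36, adjusted p = 2.81e-05) in obese mice. The receptor Cxcr4 was higher in obese VAT by 1.16 (SE 0.27, adjusted p = 0.00215) and was not called between depots in lean mice (adjusted p = 0.692). Ccl4 was higher in obese VAT by 2.08 (SE 0.56, adjusted p = 0.0068) and Ccl3 by 1.32 (SE 0.49, adjusted p = 0.0461), and these calls were lost without obese mouse 4 (adjusted p = 0.0858 and 0.262), that of Ccl3 also without lean mouse 2 (0.0529), lean mouse 3 (0.0518) or obese mouse 2 (0.205), with no filter on low counts (0.102), with DESeq2 (0.078) and without the mouse block (0.0569). Ccl19 was higher in obese VAT by 4.33 (SE 0.64, adjusted p = 2.16e-05) and Cxcl12 NM_021704 by 0.60 (SE 0.13, adjusted p = 0.00129). With the counts of Cxcl12 summed over its rows the obese depot calls of both rows were lost (logFC -0.11 (SE 0.12, adjusted p = 0.528)), which for NM_021704 is the opposite direction.

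In lean mice several ligand calls between depots were lost without single mice or with another method. Ccl6 was higher in VAT by 0.44 (SE 0.13, adjusted p = 0.027) and Ccl9 by 0.43 (SE 0.14, adjusted p = 0.047), in both cases on 4 mice whose values overlapped between depots. Without lean mouse 2 or 3 both were lost (adjusted p = 0.190 and 0.187 for Ccl6, 0.277 and 0.191 for Ccl9), and Ccl9 also without lean mouse 1 (0.0836) or without lean mouse 1 and obese mouse 1 together (0.096). Both were lost with limma voom (0.0603 and 0.0956) and without the mouse block (0.113 and 0.157), and Ccl9 with DESeq2 (0.0603) and legacy=FALSE (0.0532). Cxcl16 was higher by 0.82 (SE 0.26, adjusted p = 0.033), lost without lean mouse 1 (0.147), 3 (0.0731) or 4 (0.0768), without lean mouse 1 and obese mouse 1 together (0.144), with no filter on low counts (0.0621) and with legacy=FALSE (0.0572). Cx3cl1 was higher by 0.79 (SE 0.25, adjusted p = 0.0369), lost without lean mouse 1 (0.0946), 3 (0.169) or 4 (0.156), without lean mouse 1 and obese mouse 1 together (0.0974), with no filter on low counts (0.0562) and with limma voom (0.0696). The call of Cxcl9 was lost without lean mouse 2 (0.0716) or 3 (0.0790), with limma voom (0.0821) and without the mouse block (0.1). Cxcl12 NM_001012477 was higher in lean VAT by 0.38 (SE 0.13, adjusted p = 0.0446), lost without lean mouse 2 (0.0563), 3 (0.357) or 4 (0.105) or obese mouse 3 (0.0548), with no filter on low counts (0.136), with limma voom (0.0821), with the counts of the gene summed (0.42) and without the mouse block (0.1).

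Genes that carry the signal of chemokine receptors had median logFC nearer to 0 than the members. Of 88 tested rows of 65 such genes (G proteins, kinases, adaptors and regulators of desensitization), 10 were upregulated and 1 downregulated in SAT from obese mice, with a median logFC of 0.17, which is 12.5% of the rows beside 11.0% of all rows. In VAT 16 were upregulated and 2 downregulated, with a median of 0.33, or 20.5% beside 10.9%. Dock2, a Rac activator of leukocytes, rose in SAT by a logFC of 1.73 (SE 0.23, adjusted p = 3.08e-05) and in VAT by 1.32 (SE 0.21, adjusted p = 0.000248). Rgs1, which damps Gi signaling in lymphocytes, rose in VAT by 3.34 (SE 0.53, adjusted p = 0.000209), and Was, the Wiskott-Aldrich protein of leukocytes, by 1.28 (SE 0.17, adjusted p = 3.29e-05). Gnai1, a Gi alpha subunit, fell in both depots, with a logFC of -0.49 (SE 0.11, adjusted p = 0.00659) in SAT and -0.90 (SE 0.11, adjusted p = 1.55e-05) in VAT. The difference between depots was called for 2 rows of this list (2.27%, near the 2.17% of all rows), 1 of Pik3r1 (NM_001077495, -0.91 (SE 0.18, adjusted p = 0.0065)) and 1 of Gsk3b (-2.71 (SE 0.69, adjusted p = 0.0391)). Between depots in obese mice, 23 rows were higher and 9 lower in VAT (36.4% beside 29.4% of all rows), and in lean mice 8 and 3 (12.5% beside 14.8%).

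The 28 member genes that did not pass the filter were 15 ligands, 11 receptors and 2 pseudogenes. At 0 in every library were 5, among them Ccl21d, Ccl27b, Cxcl14 and Cxcr1. The other 23 had 1 to 83 counts in total and at most 16 in a library. Of the receptors, Ackr4 had 83 counts, Ackr1 72, Ccr1l1 72, Ackr3 60, Ackr2 36, Ccr6 35, Cxcr2 14, Ccr3 5 and Ccr9 1. Of the ligands, Ccl27a had 37, Cxcl17 35, Ccl1 33, Ccl26 23, Cxcl5 13, Cxcl3 12 and Ccl17 8, and Ccl20, Ccl21b, Ccl25, Ccl28 and Cxcl15 had 2 to 4. The pseudogenes Ccl19-ps1 and Ccl19-ps2 had 1 and 2. Of the 28, 17 have several rows in the table, while 31 of the 39 tested genes have 1, so a low count of a gene with several rows does not show low expression. Cxcl14, with 4 rows, was at 0 and could not be compared. Of the 42 tested rows, 9 were called in no comparison.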

How the data were processed

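RNA was measured in SAT and VAT from 4 lean and 4 obese male mice. For the deposited counts the authors used Trim Galore 0.6.6 for trimming, HISAT2 2.2.0 for alignment to GRCm39 and HTSeq 0.13.5 for counting per RefSeq transcript, and they tested with edgeR 3.34.0. The libraries were made with a directional kit. The strand setting of the counting and the handling of reads shared by transcripts are not given in the sources used here. Reads of a gene and of an antisense partner may therefore not be separated. The deposited table holds 16 columns of raw counts and 16 of CPM, and the deposited CPM equals the counts divided by the library total. CPM scaled with TMM was computed here for levels.

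R 4.3.3 and edgeR 4.0.16 were used for quasi-likelihood F-tests (legacy=TRUE, TMM factors) on the 13288 rows with a CPM above 1 in at least 3 libraries, adjusted by Benjamini-Hochberg over all of them. Diets were compared in a fit of the 4 groups. Depots within a diet, and the difference of the diet response, were fitted with the mouse as a block, since both depots came from the same animals. Same-mouse libraries had correlations of their deviations from the group mean of -0.020 to 0.224 (median 0.104), and other pairs -0.206 to 0.169 (median -0.052). The SE is the logFC divided by the square root of F. On simulated data with 200 of the 13288 rows changed by a logFC of 2 in SAT from obese mice, 79% were recovered, and 70.5% with the change in VAT; as a difference between depots 56 and 53% were. Of the calls, 4.82% and 9.03% were false for diet, and 6.67% and 7.83% for the difference. Replicates correlated at 0.943 to 0.990 (log2 of CPM plus 1), and each library is a separate animal or depot.

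The members, gene lists and tests were chosen with earlier results of these data known. Members named with values are those called in any comparison, their paired ligands or receptors, and the 6 of highest mean CPM. Of the members that did not pass the filter, 1 is not reported here. Alternatives were RLE scaling, 2 other filters, DESeq2 1.42.0, limma voom 3.58.1, legacy=FALSE, counts summed per gene, fits without or with blocks, fits of 1 depot, a limit on logFC of 1.5 and leaving out each mouse. Promoters are RefSeq entries of GRCm38.p6, found for 28 of the 39 tested genes. Gene positions and 75-base matches are from GENCODE on GRCm39. Tables and figures were made with matplotlib 3.10.9, scipy 1.17.1, pandas 2.3.3 and numpy 2.4.6 under Python 3.11.15.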

Additional observations from a re-analysis of the deposited data

Results flagged for a closer look

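The diet response differed between VAT and SAT, by the test of the difference itself with the mouse as a block, for 6 rows. VAT minus SAT, it was 0.69 on the log2 scale for Ccl11, 1.14 for Ccl7, 1.44 for Ccl8, 4.96 for Ccl19, -0.999 for Cxcl12 NM_001012477 and 0.75 for Cxcl12 NM_021704. In 4 mice per group, a single library stood apart from the other 3 in 8 of 168 groups of values tested. Chance alone gives this in about 1 in 20 groups.

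Of the 8, 3 concern VAT of lean mouse 1, the shallowest library, where Ccl4 was at 1.91 CPM (next 0.427), Ccl5 at 10.2 CPM (next 6.02) and Ccl19 at 0.0 CPM on 0 counts (next 0.214). VAT of obese mouse 1, also shallow, had Ccrl2 NM_001302376 at 0.382 CPM on 1 count (next 1.23). VAT of obese mouse 2 had Ccl22 at 39.8 CPM (next 13.8). SAT of lean mouse 1 had Cxcl12 NM_001012477 at 143 CPM (next 115). SAT of obese mouse 3 had the row of Ccr2 at 2.89 CPM (next 1.08), and SAT of obese mouse 4 had Xcl1 at 2.54 CPM (next 0.894).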

How the results depend on the processing

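Many calls were lost without single mice. Of the main calls, 3 of 7 stayed in every alternative that gave a value, the limit of 1.5 on the logFC aside, for diet in SAT (Ccl8, Ccl9 and Cxcl12 NM_001012477), 13 of 23 for diet in VAT, 1 of 6 for the difference between depots (Ccl8), 10 of 18 between depots in lean mice and 20 of 25 in obese mice. With that limit as well, 0, 9, 0, 7 and 14 stayed in these comparisons. With the limit alone, the counts were 0 for diet in SAT, 12 for diet in VAT, 1 for the difference, 7 between depots in lean and 15 in obese mice. Leaving out each mouse gave 5 to 10 calls for diet in SAT, 16 to 21 in VAT, 2 to 5 for the difference, 11 to 18 between depots in lean and 22 to 25 in obese mice. In SAT, no filter on low counts gave 11 calls among 79 member rows, and leaving out lean mouse 1 and obese mouse 1 together, whose VAT libraries were the shallowest (chosen after seeing the data), gave 4. With the replicate number of the labels as a block, the diet counts were 10 in SAT and 23 in VAT. Without the mouse block, the pairing of depots by animal, the difference was called for 2 rows, and the depots for 12 rows in lean and 24 in obese mice. With counts summed per gene, Cxcl12 NM_021704 turned direction, to -0.27 for the difference and -0.11 between depots in obese mice, since both rows are then added. The causes of the other changes were not tested. Genes with under 3 counts in a library lie below what that library can show.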
